A study of Zea mays with 9 samples.

Results

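The central zone (CZ) of the maize shoot apical meristem was compared between *dcl1-2* and wild-type seedlings by RNA-seq of laser-microdissected tissue, with 2 libraries per genotype. The groups are *dcl1-2* CZ, a hypomorphic allele of *DCL1* introgressed into the inbred B73, and wild-type CZ of strain B73, both from 14-d-old seedlings. Per the study's methods, mutant and wild type were siblings, each library came from pooled apices, and the RNA was linearly amplified. P3 leaf primordia of the same genotypes, also with 2 libraries each, served only to show where the CZ differs. RPM values were computed here from the deposited counts. The description covers genes other than miRNA precursors with a mean of at least 1 RPM (the count scaled to the library total) in either genotype. These were 19865 gene models among the 45498 rows of the count table, and 32 precursor rows that passed the same filter stayed in the test, for 19897 rows in all.

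The CZ holds the stem cells at the tip of the meristem, which divide slowly and supply cells to the flanks where leaves arise. KNOX homeodomain proteins such as KN1 keep meristem cells indeterminate, WUSCHEL-type factors and CLAVATA-type receptors set the size of the stem cell pool, and auxin, moved by PIN proteins and read out through Aux/IAA repressors, marks where leaves initiate. DCL1 is the ribonuclease that cuts miRNA precursors into mature miRNAs, which in turn direct the cleavage of transcripts of mostly developmental regulators.

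In the CZ of *dcl1-2*, 40 gene models apart from precursors and the models that overlap one were called, with a log2 fold change of 1 or more in size and an adjusted p under 0.05 (edgeR's quasi-likelihood test with Benjamini-Hochberg adjustment). Of these, 12 were higher and 28 lower in *dcl1-2*. They are part of 49 calls over all rows tested, or 0.246% (0.106% higher and 0.141% lower), the others being 5 precursors and 4 models that overlap one. The count over all rows depends on the libraries and the tool, with 115 calls without *dcl1-2* replicate 1, 116 without wild-type replicate 1, 378 without wild-type replicate 2 and 210, or 1.06%, in DESeq2. The lower genes include the auxin transporter gene *PIN1d*, the Aux/IAA gene *BIF1*, the expansin gene *expa2* and the defensin gene *DEF1*. Also among them are the tubulin gene *TUB1*, which lies near *DCL1* on chromosome 1, and the *AGO10* paralog GRMZM2G079080. The higher genes include *NF-YA4*, a target of miR169, the glutamate decarboxylase gene *GAD* and the terpene synthase gene *tps26*. Of the KNOX genes and the meristem regulators, 0 passed in edgeR, while by DESeq2 1 regulator rose and 2 fell. 12 of the 40 kept an adjusted p under 0.05 in each of the 14 alternatives in which they were tested, among them *BIF1*, *TUB1* and *NF-YA4*. A model that a filter left untested in an alternative was not counted as lost there. With precursors and the models that overlap one left out of the test, 30 of the 40 kept their call.

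Several facts of the libraries bear on these values. Total counts were 24753974 to 25232906 in *dcl1-2* CZ and 26622288 to 30327603 in wild-type CZ, so that 1 count is worth 0.0330 to 0.0404 RPM. The P3 libraries were shallower, at 8626824 to 10328582 counts, so that 1 count is worth 0.0968 to 0.116 RPM. They also differ from the CZ libraries in sequencing layout. Where values are set across tissues, tissue and library type cannot be told apart. Replicates differed beyond sampling noise and were used as 2 samples each, and the p-values measure the spread between these pooled samples. The KNOX genes that define the meristem summed to 1522 and 1445 RPM in *dcl1-2* CZ and to 1249.85 and 1436 RPM in wild-type CZ, against 83.2 to 102 RPM in P3. Of the 10 KNOX genes, 0 were at 0 counts in any CZ library. The 8 YABBY genes, markers of leaf cells, summed to 10.4 and 24.5 RPM in *dcl1-2* CZ and to 36.9 and 54.2 RPM in wild-type CZ, which as shares of their mean sum in wild-type P3 is 1.10% and 2.60% against 3.92% and 5.75%. In each *dcl1-2* CZ library and in wild-type replicate 2, 3 of the 8 YABBY genes were at 0 counts, against 0 in wild-type replicate 1. In such bulk tissue, fewer cells of a type and less RNA per cell cannot be told apart. The mutated gene itself, *DCL1* (GRMZM2G040762, chromosome 1, 4607185 to 4614592 in B73 RefGen_v3), had 84.0 and 91.7 RPM in *dcl1-2* CZ, against 65.4 and 62.2 RPM in wild-type CZ. Its log2 fold change was 0.43 ± 0.14 (SE; edgeR adjusted p = 0.272), so its transcript level does not check the labels.

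The transcripts most directly linked to DCL1 are the miRNA targets, and one of them was called. *NF-YA4* (GRMZM5G853836, chromosome 1, 174849414 to 174850967) encodes a subunit of the CCAAT-binding NF-Y complex and is targeted by miR169. Its target site is given with those of 3 further targets that rose by DESeq2 alone, as listed by the study, each with a miRNA listed for it. In the sites, capitals mark bases with no Watson-Crick partner in the miRNA; in the miRNAs, capitals mark the seed, bases 2 to 8. All are written 5′ to 3′ in RNA letters.
*NF-YA4* site: uaggcaaAucauUcuuggcuG
miR169f,h: uAGCCAAGgaugacuugccua
GRMZM2G423833 site: cagagAucccuucGauccaaa
miR159a,b,f,j,k: uUUGGAUUgaagggagcucug
GRMZM2G119650 site: ggagguggacagaaugccaa
miR394a,b: uUGGCAUUcuguccaccucc
*ARF2* (GRMZM2G153233) site: Aggcauacagggagccaggca
miR160a,b,c,d,g: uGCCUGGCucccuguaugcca
The miR394 site pairs along its whole length, and the *NF-YA4* site has 3 positions that are unpaired or wobble.

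*NF-YA4* had 75.3 and 77.4 RPM in *dcl1-2* CZ, against 20.3 and 25.6 RPM in wild-type CZ, and the groups lie far apart (log2 fold change 1.70 ± 0.18 SE; edgeR adjusted p = 0.00341). It was also higher in P3, with 41.4 and 35.5 RPM in *dcl1-2* and 15.2 and 19.2 RPM in wild type (log2 fold change 1.23, edgeR adjusted p = 0.00269), and the difference between tissues did not pass (0.46, edgeR adjusted p = 0.435). GRMZM2G423833, a target of miR159, had 27.6 and 39.6 RPM in *dcl1-2* CZ and 11.8 and 15.6 RPM in wild-type CZ. GRMZM2G119650, a target of miR394, had 58.9 and 76.4 RPM in *dcl1-2* CZ, against 28.9 and 38.0 RPM in wild-type CZ. The auxin response factor gene *ARF2*, targeted by miR160, had 60.6 and 84.8 RPM in *dcl1-2* CZ and 30.2 and 42.4 RPM in wild-type CZ. For these 3 genes the libraries of the genotypes do not overlap, but the calls rest on the tool: edgeR adjusted p was 0.0722, 0.0780 and 0.104, and DESeq2 adjusted p was 0.000571, 0.000826 and 0.00305. GRMZM2G178686, another listed target, lay the other way, with 1.17 and 1.11 RPM in *dcl1-2* CZ and 9.03 and 4.43 RPM in wild-type CZ (edgeR adjusted p = 0.0619, DESeq2 adjusted p = 0.000826). It overlaps the *tas3a* precursor, so reads of the gene and of the precursor cannot be told apart. By DESeq2 and not edgeR, the miR319 target GRMZM2G115516 (log2 fold change -2.05) and the miR396 target *GRF3* (GRMZM2G105335, -1.54) were also lower.

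Among the 96 targets tested, 1 rose and 0 fell in edgeR, against 0.116% and 0.176% of all rows tested (0.292% in both directions). By DESeq2, 6 rose and 3 fell, against 0.628% and 1.13% of all rows (1.76% in both directions). The median log2 fold change of the targets was 0.02, beside -0.0029 over all rows tested, and 27 targets had an unadjusted edgeR p under 0.05, beside 10.5% of all rows. Of 44 genes of the miRNA pathway tested, *AGO10* (GRMZM2G079080) alone passed. A paralog that the study lists under the same name, AC189879.3_FG003, passed in neither tool (log2 fold change 0.15). The name *AGO10* is used here for GRMZM2G079080 only. *AGO10* encodes an Argonaute protein that in *Arabidopsis* sequesters miR166 and is needed to maintain shoot stem cells. It had 20.3 and 23.6 RPM in *dcl1-2* CZ, against 44.7 and 49.1 RPM in wild-type CZ (log2 fold change -1.13 ± 0.18 SE; edgeR adjusted p = 0.0335). The call was lost without *dcl1-2* replicate 1 (adjusted p = 0.0820) and without *dcl1-2* replicate 2 (adjusted p = 0.0573). A gene model on the opposite strand overlaps *AGO10*, and strand was not stated for the counting.

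**Figure D1:**
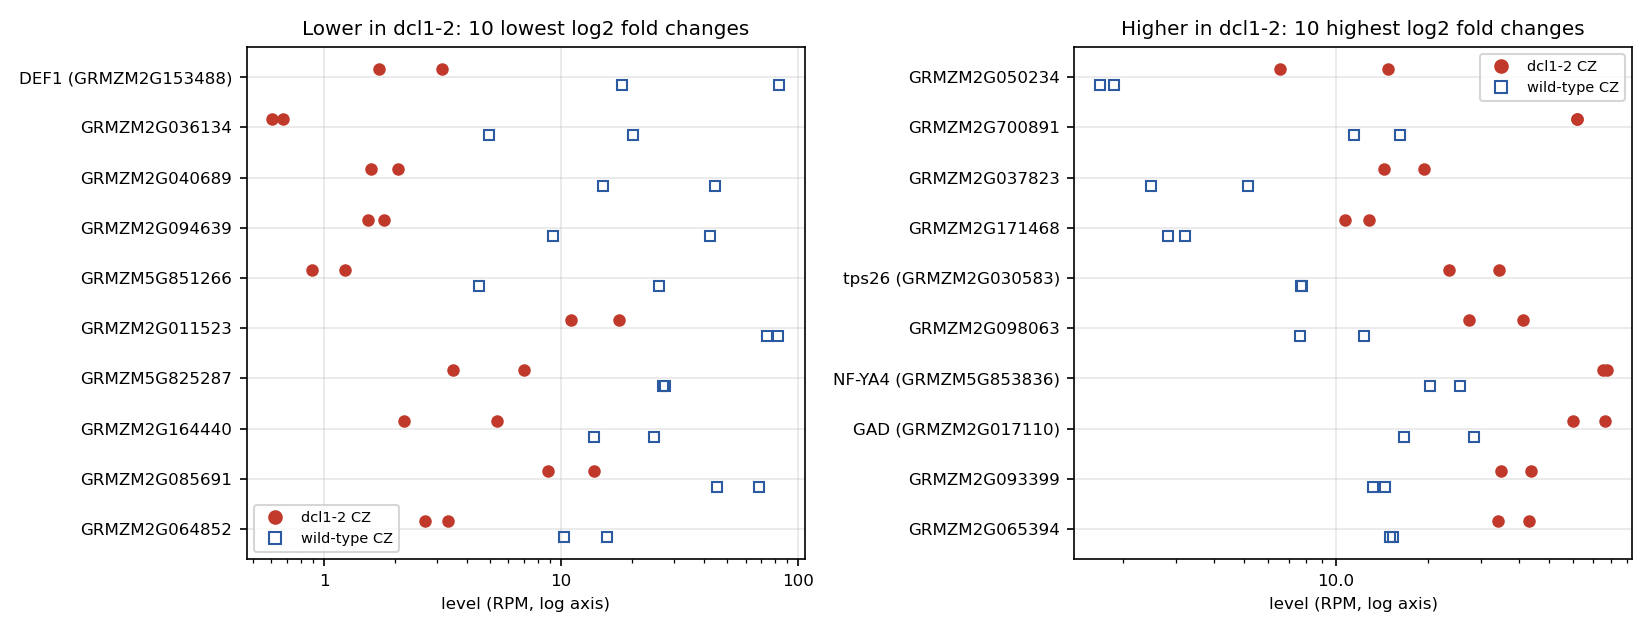
Levels in RPM on a log axis of the 10 called gene models with the lowest (left) and the 10 with the highest (right) log2 fold change among those with at least 5 RPM in the higher genotype. Filled circles are the 2 *dcl1-2* CZ libraries and open squares the 2 wild-type CZ libraries. In each row they lie on separate sides, which was a condition for drawing a gene. *DEF1* spans 1.70 to 3.15 RPM in *dcl1-2* CZ against 18.1 to 83.3 RPM in wild-type CZ.

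No difference in the KNOX genes passed the test in the CZ of *dcl1-2*. *kn1* (GRMZM2G017087), which keeps meristem cells indeterminate, was the most abundant KNOX gene, with 1215 and 1061 RPM in *dcl1-2* CZ and 969.5 and 1124 RPM in wild-type CZ. The libraries overlap, and the log2 fold change was 0.09 ± 0.12 (SE; edgeR adjusted p = 0.870). Of 9 KNOX genes tested, 0 passed in edgeR and 0 in DESeq2. An unadjusted edgeR p under 0.05 was reached by 1 of the 9, beside 10.5% of all rows. Their log2 fold changes were above 0 in 7 and had a median of 0.20, and without wild-type replicate 1 in 5, with a median of 0.09. The smallest p was that of *lg4b* (GRMZM5G832409), with 19.7 and 17.2 RPM in *dcl1-2* CZ and 9.23 and 10.1 RPM in wild-type CZ (log2 fold change 0.90, edgeR adjusted p = 0.181, DESeq2 adjusted p = 0.0641). *knox6* was at 57.6 and 67.1 RPM in *dcl1-2* CZ, against 42.7 and 54.3 RPM in wild-type CZ. *knox4* had 41.1 and 75.8 RPM in *dcl1-2* CZ and 45.7 and 53.3 RPM in wild-type CZ, and its libraries overlap.

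Of 18 meristem and stem cell regulators tested, 0 passed in edgeR, beside 0.292% of all rows. An unadjusted edgeR p under 0.05 was reached by 5 of the 18, beside 10.5% of all rows. By DESeq2 3 of the 18 passed, beside 1.76% of all rows. *FEA4*, a bZIP factor that restrains meristem size, had 33.8 and 33.3 RPM in *dcl1-2* CZ, against 17.0 and 20.5 RPM in wild-type CZ (log2 fold change 0.80, edgeR adjusted p = 0.154, DESeq2 adjusted p = 0.0284). *fea3*, a leucine-rich repeat receptor gene that limits stem cell proliferation, had 114 and 117 RPM in *dcl1-2* CZ and 155 and 174 RPM in wild-type CZ (log2 fold change -0.55, edgeR adjusted p = 0.142, DESeq2 adjusted p = 0.0164). The WUSCHEL-related gene *wox9B* had 36.9 and 36.5 RPM in *dcl1-2* CZ and 51.4 and 92.8 RPM in wild-type CZ (log2 fold change -1.01, edgeR adjusted p = 0.130, DESeq2 adjusted p = 0.00618). These 3 genes had libraries that do not overlap between genotypes, as is so for 18.1% of all rows tested in the lower and 22.8% in the higher direction. Among the regulators with the highest levels, *ct2*, a G-protein alpha subunit gene, was at 65.7 and 62.4 RPM in *dcl1-2* CZ, against 61.8 and 64.1 RPM in wild-type CZ (log2 fold change -0.01 ± 0.15 SE, and 0.02 when scaled by total counts only). *abph1*, a cytokinin response regulator gene that affects leaf arrangement, was at 115 and 111 RPM in *dcl1-2* CZ and 126 and 139.8 RPM in wild-type CZ (edgeR adjusted p = 0.536). The log2 fold changes of *GIF1*, *GIF2* and *serk3* were -0.35, 0.10 and 0.24, and the adjusted p was at least 0.392 for each. Outside the rule for named genes, *wus1*, *TD1* and *fea2* were at 0.23, 0.30 and 0.19. *ns1* had the largest change of the list in size, -5.60. None of these passed in either tool. Over the list, 10 genes were below 0 and 8 above, with a median of -0.01.

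**Figure D2:**
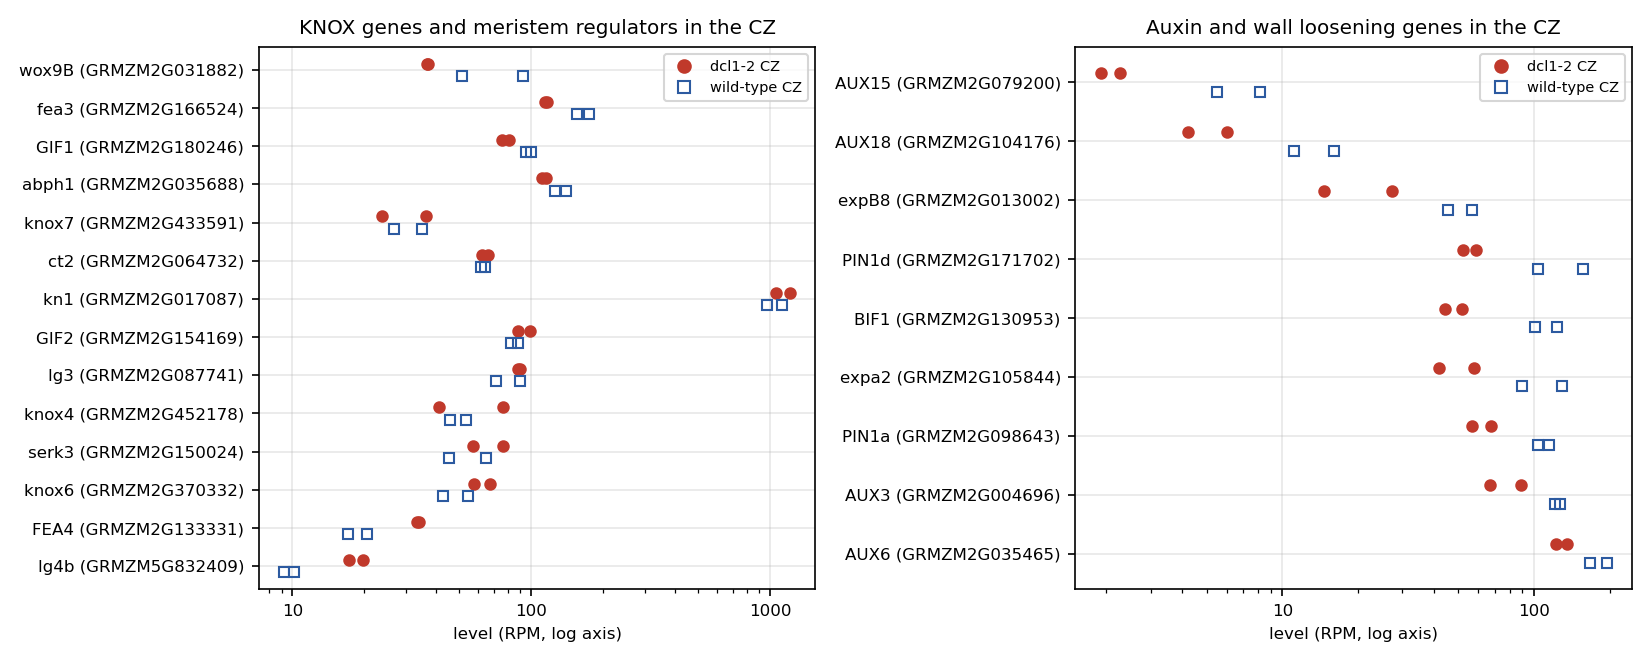
Levels in RPM on a log axis of the named KNOX genes and meristem regulators (left) and of the named auxin and wall loosening genes (right), ordered by log2 fold change. Filled circles are the 2 *dcl1-2* CZ libraries and open squares the 2 wild-type CZ libraries. *kn1* overlaps between 969.5 and 1215 RPM. The auxin and wall genes drawn were chosen because they passed in edgeR or DESeq2, and they lie lower in both *dcl1-2* CZ libraries. So do 10 of 22 auxin and 7 of 17 wall loosening genes tested, beside 18.1% of all rows.

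Among the hormone lists, the auxin list alone held genes that passed in edgeR, all lower in *dcl1-2*. *PIN1d* (GRMZM2G171702, chromosome 4, 186642791 to 186645569), which encodes an auxin efflux carrier, had 58.6 and 52.1 RPM in *dcl1-2* CZ, against 157 and 104 RPM in wild-type CZ (log2 fold change -1.26 ± 0.18 SE; edgeR adjusted p = 0.0207). Both *dcl1-2* libraries were below both wild-type libraries, and without *dcl1-2* replicate 2 the adjusted p was 0.0553. *PIN1a* (GRMZM2G098643, chromosome 9, 3650766 to 3654174), a second efflux carrier gene of this clade, had 56.5 and 67.3 RPM in *dcl1-2* CZ and 115 and 104 RPM in wild-type CZ. It passed with a log2 fold change under 1 in size (-0.85 ± 0.15 SE; edgeR adjusted p = 0.0476), and not without *dcl1-2* replicate 1 (adjusted p = 0.135) or *dcl1-2* replicate 2 (adjusted p = 0.0624). With precursors and the models that overlap one left out of the test, the edgeR adjusted p of *PIN1a* was 0.0559. A gene model on the opposite strand overlaps *PIN1a*. *BIF1* (GRMZM2G130953, chromosome 8, 18318828 to 18320919), an Aux/IAA repressor gene required for the initiation of organs at the meristem flank of the inflorescence, had 44.3 and 51.9 RPM in *dcl1-2* CZ, against 123 and 101 RPM in wild-type CZ. Its log2 fold change was -1.25 ± 0.16 (SE; edgeR adjusted p = 0.00836), and its adjusted p was under 0.05 in all 14 alternatives run.

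In P3 the values of the PIN genes lay the other way. *PIN1d* had 224 and 237 RPM in *dcl1-2* P3, against 186 and 147 RPM in wild-type P3, with an edgeR adjusted p of 0.0553, and the effect of *dcl1-2* in the CZ minus that in P3 was -1.80 ± 0.26 on the log2 scale (SE; edgeR adjusted p = 0.00481). *PIN1a* had 104 and 122 RPM in *dcl1-2* P3 and 73.2 and 62.9 RPM in wild-type P3 (edgeR adjusted p = 0.0081), and the difference between tissues was -1.66 (edgeR adjusted p = 0.00324). *BIF1* was low in P3, with 14.8 and 8.81 RPM in *dcl1-2* and 25.4 and 22.02 RPM in wild type, and its effect did not differ detectably between the tissues (-0.31, edgeR adjusted p = 0.683). The gap of *BIF1* between genotypes in the CZ was larger than its whole wild-type P3 level. That comparison does not measure the content of other cells in the CZ samples, and their part was not tested.

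Of 22 auxin genes tested, 0 rose and 3 fell in edgeR, against 0.116% and 0.176% of all rows. By DESeq2 7 fell, against 1.13% of all rows, the other 4 being the Aux/IAA genes *AUX3*, *AUX6*, *AUX15* and *AUX18*. *AUX3* had 66.8 and 88.9 RPM in *dcl1-2* CZ, against 127 and 121 RPM in wild-type CZ (log2 fold change -0.71, DESeq2 adjusted p = 0.00525, edgeR adjusted p = 0.104). *AUX6* had 123 and 136 RPM in *dcl1-2* CZ and 167 and 195 RPM in wild-type CZ (log2 fold change -0.52, DESeq2 adjusted p = 0.0395, edgeR adjusted p = 0.181). The other two were below 17 RPM in every CZ library, with log2 fold changes of -1.75 (*AUX15*) and -1.44 (*AUX18*). An unadjusted edgeR p under 0.05 was reached by 9 of the 22, beside 10.5% of all rows. The log2 fold change was below 0 in 17 of the 22, with a median of -0.29, whereas 50.4% of all rows tested were below 0. Both *dcl1-2* CZ libraries lay below both wild-type CZ libraries for 10 of the 22, and above them for 3, beside 18.1% below and 22.8% above over all rows. Without wild-type replicate 1 the list median was -0.09, and 13 of the 22 were below 0.

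The other hormone lists held no gene that passed in edgeR. Of 20 cytokinin genes, *CKX12*, of the cytokinin oxidases that degrade the hormone, passed in DESeq2, with 0.162 and 0.119 RPM in *dcl1-2* CZ and 2.97 and 1.502 RPM in wild-type CZ (edgeR adjusted p = 0.0873, DESeq2 adjusted p = 0.0109). Of 25 jasmonate genes, the lipoxygenase gene *lox5* passed in DESeq2, with 4.403 and 10.1 RPM in *dcl1-2* CZ and 29.8 and 12.5 RPM in wild-type CZ (edgeR adjusted p = 0.188, DESeq2 adjusted p = 0.0209). In wild-type P3, *CKX12* was at 17.0 to 19.8 RPM, above both wild-type CZ libraries, and *lox5* at 26.5 to 58.5 RPM, which overlaps them. Of 10 abscisic acid genes, *dehydrin3* had 9.90 and 5.47 RPM in *dcl1-2* CZ, against 50.5 and 14.5 RPM in wild-type CZ, with an edgeR adjusted p of 0.105 and a DESeq2 adjusted p of 0.312. The few gibberellin, brassinosteroid and ethylene genes tested, 4, 3 and 2 in number, had median log2 fold changes of -0.06, -0.23 and 0.00, and 0 passed in either tool. At an unadjusted edgeR p under 0.05 stood 1 cytokinin, 4 jasmonate, 3 abscisic acid, 0 gibberellin, 1 brassinosteroid and 0 ethylene genes. Over all rows tested, 10.5% stood there, and 1.76% passed in DESeq2.

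Of 17 genes of wall loosening, pectin and wall proteins, 1 fell in edgeR, against 0.176% of all rows. It was *expa2* (GRMZM2G105844, chromosome 5, 206838596 to 206840547), an alpha-expansin that loosens the wall during cell expansion, with 41.9 and 57.7 RPM in *dcl1-2* CZ, against 129 and 89.8 RPM in wild-type CZ (log2 fold change -1.16 ± 0.20 SE; edgeR adjusted p = 0.0425). With precursors and the models that overlap one left out of the test, its edgeR adjusted p was 0.0506. Without *dcl1-2* replicate 1 its adjusted p was 0.0777. The beta-expansin gene *expB8* had 14.7 and 27.4 RPM in *dcl1-2* CZ and 56.7 and 45.7 RPM in wild-type CZ, and passed in DESeq2 (adjusted p = 0.000294) but not in edgeR (log2 fold change -1.31, adjusted p = 0.0741). The log2 fold change was below 0 in 15 of the 17, beside 50.4% of all rows, with a median of -0.39. Both *dcl1-2* CZ libraries lay below both wild-type CZ libraries for 7 of the 17, and above them for 1, beside 18.1% below and 22.8% above over all rows. Without wild-type replicate 1 the list median was -0.24, and 12 of the 17 were below 0.

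The 17 cellulose and hemicellulose genes tested had a median of -0.05, and 0 passed in either tool. An unadjusted edgeR p under 0.05 was reached by 2 of the 17, beside 10.5% of all rows. *CSLD1*, a cellulose synthase-like gene, came nearest, with 46.5 and 48.4 RPM in *dcl1-2* CZ and 88.7 and 57.8 RPM in wild-type CZ (log2 fold change -0.65, edgeR adjusted p = 0.215). Of 9 lignin and peroxidase genes, the cinnamyl alcohol dehydrogenase gene *BM1* had 16.4 and 27.0 RPM in *dcl1-2* CZ, against 7.02 and 8.26 RPM in wild-type CZ. *BM1* passed in DESeq2 (adjusted p = 0.000892) but not in edgeR (log2 fold change 1.47, adjusted p = 0.0735). By DESeq2, 0.628% of all rows rose. Of the 9 genes, 5 were below 0 and 4 above, with a median of -0.29. An unadjusted edgeR p under 0.05 was reached by 5 of the 9, beside 10.5% of all rows. The list median was 0.55 without wild-type replicate 1 and -0.87 without wild-type replicate 2.

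*TUB1* (GRMZM2G164696, chromosome 1, 2037790 to 2040079), a beta-tubulin gene of the microtubules that guide cellulose deposition, had the smallest adjusted p of the called genes. *TUB1* lies 2.57 Mb from *DCL1*, so an effect of *dcl1-2* and one of the linked chromosome segment cannot be told apart. It had 183 and 224 RPM in *dcl1-2* CZ, against 636 and 627 RPM in wild-type CZ (log2 fold change -1.67 ± 0.13 SE; edgeR adjusted p = 0.000979). In P3 it stood at 477 and 475 RPM in *dcl1-2* and 517 and 440.3 RPM in wild type, and the difference between tissues was -1.73 (edgeR adjusted p = 0.00129). The other beta-tubulin genes tested, chosen after the value of *TUB1* was seen, did not pass, with log2 fold changes of -0.99 to -0.25, among them *tub5* at 588 and 575 RPM in *dcl1-2* CZ and 700.3 and 656 RPM in wild-type CZ. Tubulin genes resemble each other, and uniquely mapped reads can be lost or split among them.

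**Figure D3:**
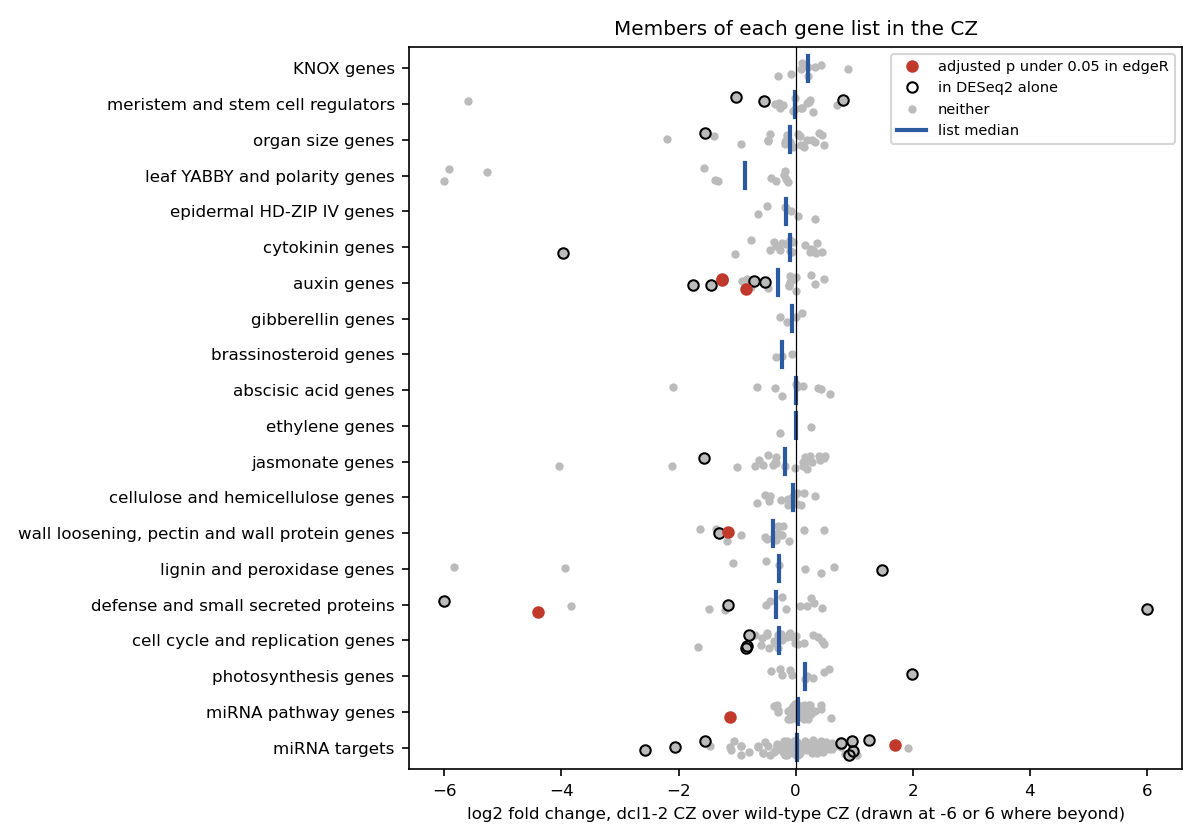
Log2 fold change of *dcl1-2* CZ over wild-type CZ for each tested member of each gene list, with the list median as a bar. Filled red points pass at an adjusted p under 0.05 in edgeR, open rings pass in DESeq2 alone, and grey points pass in neither; 3 auxin genes, *expa2*, *DEF1* and *AGO10* are red on the lower side and *NF-YA4* is red on the higher side.

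The largest fall among the called genes with a name was that of *DEF1* (GRMZM2G153488), a defensin gene of antifungal peptides. It had 3.15 and 1.70 RPM in *dcl1-2* CZ, against 83.3 and 18.1 RPM in wild-type CZ (log2 fold change -4.40 ± 0.60 SE; edgeR adjusted p = 0.0158). The wild-type libraries differ widely from each other, and with limma-voom the adjusted p was 0.169. In P3 *DEF1* was higher in *dcl1-2*, with 246 and 215 RPM against 119.9 and 185 RPM in wild type (edgeR adjusted p = 0.0305). Of 16 defense and small secreted protein genes tested, *DEF1* alone passed in edgeR. At an unadjusted edgeR p under 0.05 stood 7 of the 16, beside 10.5% of all rows. The median log2 fold change was -0.33. Without wild-type replicate 1 the median was 0.20, and 10 of the 16 were above 0. By DESeq2 the benzoxazinoid genes *bx2* and *bx9* were also lower and the ribosome-inactivating protein gene *rip2* higher. *bx9* had 10.7 and 15.4 RPM in *dcl1-2* CZ, against 32.5 and 24.7 RPM in wild-type CZ. *bx2* had 0 counts in both *dcl1-2* CZ libraries and was at least 30.4-fold lower than in wild-type CZ by a floor of 3 counts over the group, although its wild-type level was 3.20 RPM in replicate 1 and 0.263 RPM in replicate 2. *rip2* had 0.768 and 3.29 RPM in *dcl1-2* CZ and 0 counts in both wild-type CZ libraries, at least 38.7-fold higher by the same floor. The edgeR adjusted p of *bx9*, *bx2* and *rip2* was 0.0907, 0.121 and 0.0627.

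Several called genes with no name in the table used also had wild-type libraries that differ from each other. GRMZM2G094639 had 1.54 and 1.78 RPM in *dcl1-2* CZ, against 42.5 and 9.28 RPM in wild-type CZ, and GRMZM5G851266 had 0.889 and 1.23 RPM in *dcl1-2* CZ, against 25.8 and 4.51 RPM in wild-type CZ. Wild-type replicate 1 is the higher in each, as for GRMZM2G036134 (0.606 and 0.674 RPM in *dcl1-2* CZ, against 20.2 and 4.96 RPM in wild-type CZ) and GRMZM2G040689 (2.06 and 1.59 RPM in *dcl1-2* CZ, against 44.4 and 15.1 RPM in wild-type CZ). With limma-voom the adjusted p of these 4 was 0.201, 0.271, 0.189 and 0.0835. Without wild-type replicate 1 the adjusted p of GRMZM5G851266 was 0.154. More even is GRMZM2G011523 (chromosome 3, 23904351 to 24095931), with 17.5 and 10.98 RPM in *dcl1-2* CZ and 82.2 and 74.1 RPM in wild-type CZ (log2 fold change -2.48 ± 0.22 SE; edgeR adjusted p = 0.00148). GRMZM5G825287, which lies inside it on the opposite strand, had 6.95 and 3.49 RPM in *dcl1-2* CZ and 26.9 and 27.4 RPM in wild-type CZ, so the pair may count the same reads. The models GRMZM2G132077 and GRMZM2G433844 also overlap on opposite strands and have nearly the same values. GRMZM2G132077 had 74.8 and 39.8 RPM in *dcl1-2* CZ, against 309 and 154 RPM in wild-type CZ (log2 fold change -2.04, edgeR adjusted p = 0.0292, DESeq2 adjusted p = 0.0711), and 3227 to 4018 RPM in wild-type P3. GRMZM2G164440 had 5.37 and 2.18 RPM in *dcl1-2* CZ and 24.6 and 13.7 RPM in wild-type CZ (edgeR adjusted p = 0.0483). By contrast GRMZM2G027522 was low in wild-type P3, at 4.64 to 5.48 RPM, and had 33.2 and 38.0 RPM in *dcl1-2* CZ, against 97.4 and 82.4 RPM in wild-type CZ (log2 fold change -1.37, edgeR adjusted p = 0.00501). The lower models not named elsewhere, GRMZM2G072117, GRMZM2G113355 and GRMZM2G150714, had log2 fold changes of -1.21, -1.24 and -1.61.

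The lower genes were compared with the leaf. Of the 28 lower calls, 15 had both wild-type P3 libraries above both wild-type CZ libraries, as had 3 of the 12 higher calls and 39.3% of all rows tested. Conversely 11 of the 28 lower and 9 of the 12 higher calls were below in P3, beside 39.9% of all rows. All 12 tested genes of the leaf YABBY and polarity list had a log2 fold change below 0, beside 50.4% of all rows. Their median was -0.87, and 0 passed in either tool. An unadjusted edgeR p under 0.05 was reached by 5 of the 12, beside 10.5% of all rows. Without wild-type replicate 1 the median was -0.30 and 3 of the 12 were above 0, and without wild-type replicate 2 it was -0.35, also with 3 above 0. *yabby15* had 3.19 and 10.2 RPM in *dcl1-2* CZ, against 16.9 and 15.8 RPM in wild-type CZ and 409 to 535 RPM in wild-type P3. *YAB3* had 0 counts in both *dcl1-2* CZ libraries and in wild-type replicate 2, and 2.21 RPM in wild-type replicate 1. The gap in the YABBY sum between the genotypes in the CZ was -2.98% of the wild-type P3 mean. The same ratio was -31.7% for *DEF1*, -61.7% for GRMZM2G040689, -45.0% for *PIN1d*, -4.51% for GRMZM5G851266 and -1.66% for GRMZM2G164440. These genes were called on their gap in the CZ, and a low P3 level enlarges the ratio. The ratios therefore do not measure leaf cell content. The part of leaf cells in these differences was not tested.

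The effect of *dcl1-2* in the CZ was then set beside that in P3, which used other libraries. In P3, 4.50% of rows tested passed at an adjusted p under 0.05, 3.34% of rows higher and 1.16% lower in *dcl1-2*. Of the 38 called CZ models tested in P3, 14 passed there. Among the lower CZ calls, 10 were higher in *dcl1-2* P3 and 1, GRMZM2G085964, was lower. Among the higher CZ calls, 3 were also higher in *dcl1-2* P3, namely *NF-YA4*, GRMZM2G065394 and GRMZM2G700891. The difference between tissues itself passed for 21 of the 28 lower and 1 of the 12 higher calls, beside 2.36% of all rows tested for it (2.03% with a lower and 0.327% with a higher effect in the CZ). The calls were chosen for their effect in the CZ, and this contrast uses the same CZ libraries, so these shares cannot be set against the share over all rows. The exception among the higher calls was *GAD*, which makes gamma-aminobutyrate, with 60.2 and 76.1 RPM in *dcl1-2* CZ and 16.8 and 28.5 RPM in wild-type CZ, against 22.6 and 35.5 RPM in *dcl1-2* P3 and 36.7 and 40.5 RPM in wild-type P3. GRMZM2G064852 was lower in the CZ, with 2.67 and 3.33 RPM in *dcl1-2* and 15.6 and 10.3 RPM in wild type, and higher in P3, with 19.8 and 31.8 RPM in *dcl1-2* and 2.48 and 5.80 RPM in wild type.

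**Figure D4:**
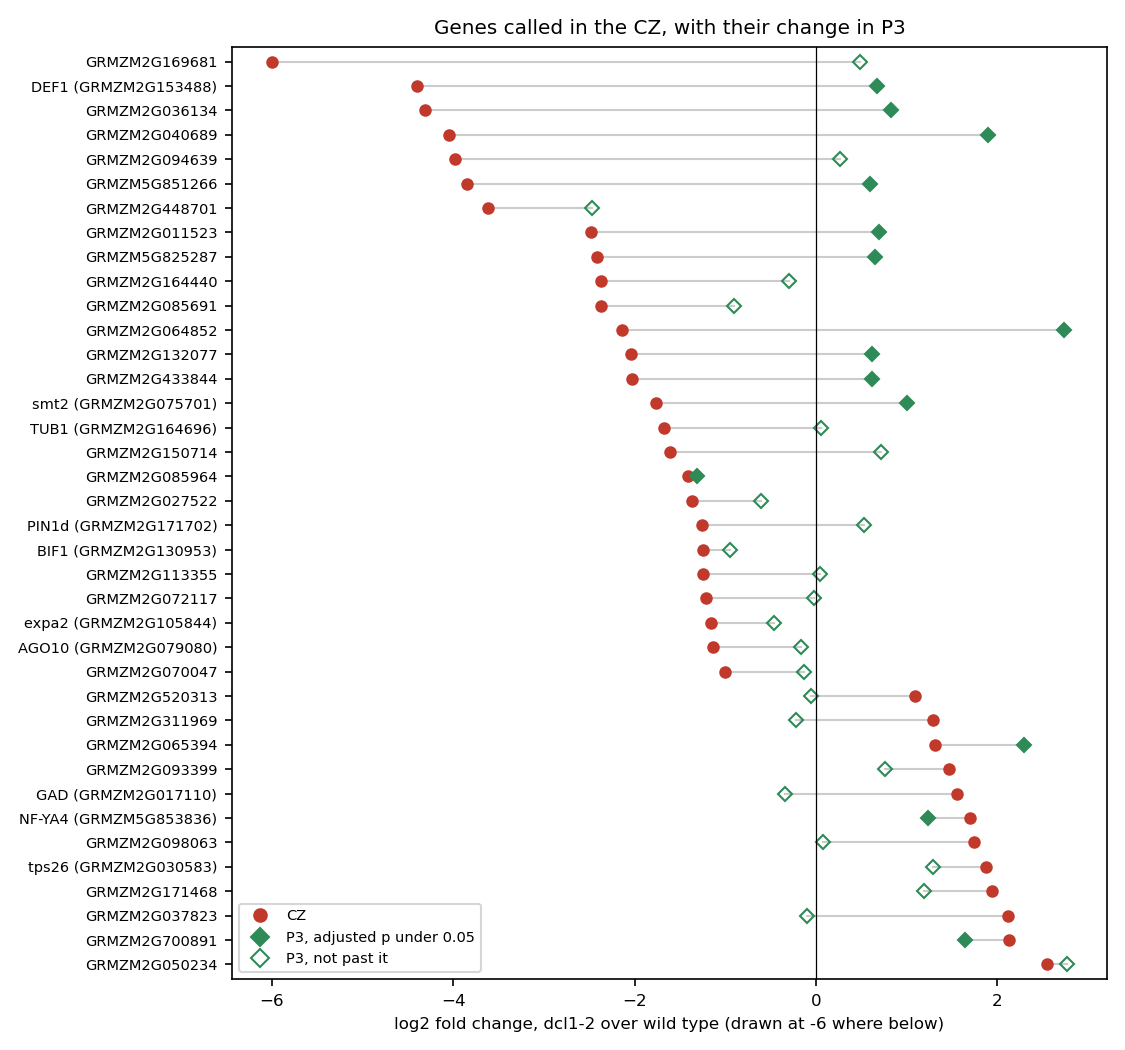
Log2 fold change of *dcl1-2* over wild type for the 38 gene models called in the CZ that were tested in P3, in the CZ (circles) and in P3 (diamonds, filled where the adjusted p in P3 is under 0.05). Of the 26 lower CZ genes drawn, 16 are above 0 in P3, *NF-YA4* is higher in both tissues at 1.70 and 1.23, and GRMZM2G064852 is lower in the CZ at -2.14 and higher in P3 at 2.73.

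Among the higher genes, GRMZM2G700891 had 61.6 and 62.0 RPM in *dcl1-2* CZ, against 16.2 and 11.5 RPM in wild-type CZ (log2 fold change 2.13 ± 0.20 SE; edgeR adjusted p = 0.00148). *tps26*, a terpene synthase gene, had 23.5 and 34.4 RPM in *dcl1-2* CZ and 7.72 and 7.74 RPM in wild-type CZ (log2 fold change 1.87 ± 0.25 SE; edgeR adjusted p = 0.0158). It was at most 2.20 RPM in every P3 library, and without *dcl1-2* replicate 2 its adjusted p in the CZ was 0.0573. *GAD* also lost its call without that library (adjusted p = 0.0573). GRMZM2G050234 had 14.8 and 6.58 RPM in *dcl1-2* CZ and 1.68 and 1.88 RPM in wild-type CZ (edgeR adjusted p = 0.0473), and 0.193 without *dcl1-2* replicate 1. GRMZM2G311969, the most abundant of the higher genes, had 118 and 198 RPM in *dcl1-2* CZ and 68.8 and 57.6 RPM in wild-type CZ (edgeR adjusted p = 0.0376). The remaining higher genes had log2 fold changes of 1.09 to 2.12 and wild-type CZ levels of 2.48 to 32.2 RPM.

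Of 33 cell cycle and replication genes tested, 0 passed in edgeR, 10 had an unadjusted p under 0.05, beside 10.5% of all rows, and 3 passed in DESeq2, all lower, beside 1.13% of all rows. The histone gene *his2b2* had 267 and 210.3 RPM in *dcl1-2* CZ, against 355 and 484 RPM in wild-type CZ (log2 fold change -0.85, edgeR adjusted p = 0.0853, DESeq2 adjusted p = 0.000446). *RNRS2*, a ribonucleotide reductase subunit gene, had 26.7 and 24.7 RPM in *dcl1-2* CZ and 44.0 and 45.5 RPM in wild-type CZ (log2 fold change -0.83, edgeR adjusted p = 0.0899, DESeq2 adjusted p = 0.00428). The cyclin gene *cyc1* had 43.8 and 37.1 RPM in *dcl1-2* CZ and 82.6 and 54.8 RPM in wild-type CZ (log2 fold change -0.79). The median of the list was -0.29, and 26 of 33 members were below 0, beside 50.4% of all rows. Gene models on the opposite strand overlap *his2b2*, *cyc1*, *FEA4*, *GIF2*, *BM1*, GRMZM2G113355, GRMZM2G171468 and GRMZM2G050234, whose counts may hold reads of both. Of 26 organ size genes, the growth-regulating factor gene *GRF3* (GRMZM2G105335), a listed target of miR396, passed in DESeq2. It had 2.95 and 3.73 RPM in *dcl1-2* CZ and 12.4 and 6.72 RPM in wild-type CZ (edgeR adjusted p = 0.142). Of 11 photosynthesis genes, *PPDK2* passed in DESeq2, with 8.24 and 4.64 RPM in *dcl1-2* CZ and 1.71 and 1.46 RPM in wild-type CZ (edgeR adjusted p = 0.115). Of 7 epidermal HD-ZIP IV genes, 0 passed in either tool and 0 had an unadjusted edgeR p under 0.05, and their median was -0.17.

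The position of the called models relative to *DCL1* was then read. The 6 called models within 20 Mb of *DCL1* all lie within 5 Mb of it, a window chosen after the positions were seen. These 6 are 15.0% of the 40, whereas 2.17% of all rows tested lie within 20 Mb. Of 429 gene models tested within 20 Mb 1.40% were called, of 201 within 5 Mb 2.99%, and of 19400 elsewhere 0.175%. They are GRMZM2G070047, GRMZM2G448701, GRMZM2G085691, *TUB1*, *smt2* and GRMZM2G093399. GRMZM2G070047, 0.372 Mb away, had 52.8 and 50.4 RPM in *dcl1-2* CZ, against 98.5 and 104 RPM in wild-type CZ (log2 fold change -1.0, edgeR adjusted p = 0.0207, and 0.0658 without *dcl1-2* replicate 2). GRMZM2G448701, 1.54 Mb away, had 0.283 and 0.436 RPM in *dcl1-2* CZ and 5.14 and 3.61 RPM in wild-type CZ (edgeR adjusted p = 0.0416, and 0.0655 and 0.0593 without *dcl1-2* replicates 1 and 2). GRMZM2G085691, 1.92 Mb away, had 8.85 and 13.8 RPM in *dcl1-2* CZ and 45.3 and 68.6 RPM in wild-type CZ (edgeR adjusted p = 0.00477). *smt2*, 3.42 Mb away, had 9.21 and 5.75 RPM in *dcl1-2* CZ and 27.4 and 22.2 RPM in wild-type CZ (edgeR adjusted p = 0.0298, and 0.0677 without *dcl1-2* replicate 2). GRMZM2G093399, 4.47 Mb away, was the higher one, with 43.7 and 34.8 RPM in *dcl1-2* CZ and 13.3 and 14.5 RPM in wild-type CZ (edgeR adjusted p = 0.0207). Because the introgressed segment comes with the allele, an effect of *dcl1-2* and an effect of the linked chromosome segment cannot be told apart for these genes.

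**Figure D5:**
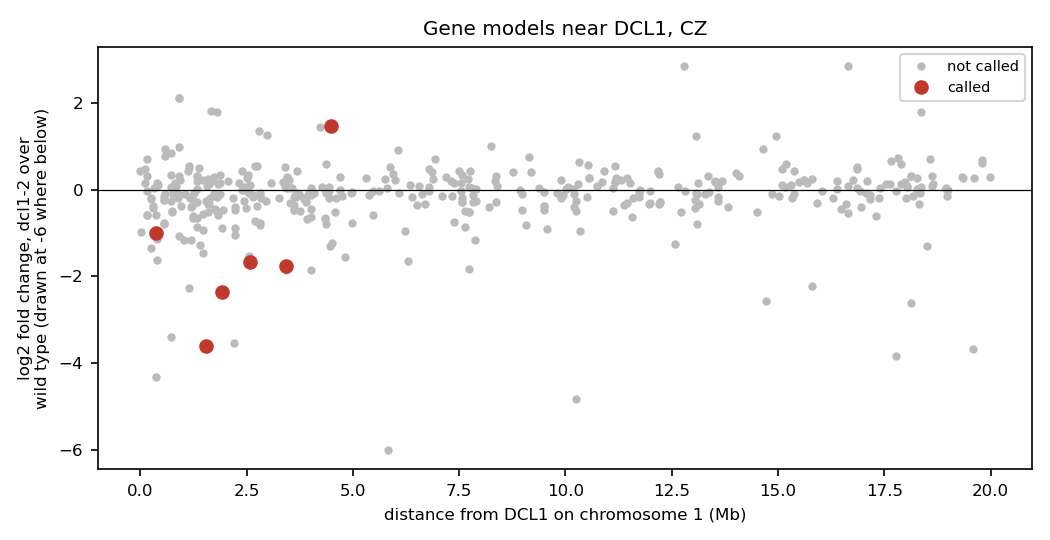
Log2 fold change of *dcl1-2* CZ over wild-type CZ for the 429 gene models tested within 20 Mb of *DCL1*, against their distance from it in Mb. Red points are the 6 called models, which lie between 0.372 and 4.47 Mb from *DCL1*; 5 of them are lower and 1 is higher in *dcl1-2*, and values below -6 are drawn at -6.

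3 of the lower models had 0 counts in both *dcl1-2* CZ libraries and carry no name in the table used. GRMZM2G316362 had 3.86 and 5.67 RPM in wild-type CZ and was at least 78.4-fold lower in *dcl1-2* CZ, against the floor of 3 counts over the group. GRMZM2G169681 had 4.42 and 0.977 RPM in wild-type CZ and was at least 46.8-fold lower in *dcl1-2* CZ, and without wild-type replicate 1 its adjusted p was 0.0835. GRMZM2G001514 had 1.62 RPM in each wild-type CZ library and was at least 26.9-fold lower, with an edgeR adjusted p of 0.0483 that was 0.0576 without *dcl1-2* replicate 1 and 0.0874 without *dcl1-2* replicate 2. Called models outside the rule for named genes were named after their values were seen.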

How the data were processed

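RNA-seq libraries of laser-microdissected maize CZ and P3 tissue were grouped by genotype and tissue from the sample labels. As the study's methods state, Trimmomatic and then TopHat were run against B73 RefGen_v3, and the authors deposited the HTSeq count of uniquely mapping reads in each gene model and curated miRNA precursor, not normalized. Whether counting used strand is not given in the sources used here. The deposited RPM columns, treated as a score because the authors scaled them to less than the column total of the counts, served only as an alternative for levels. The small RNA library was not analysed here.

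Rows that averaged 1 RPM or more in one genotype or the other were tested with edgeR 4.0.16 (TMM, quasi-likelihood, 2-sided, Benjamini-Hochberg over all 19897 rows) in R 4.3.3, in the 4 CZ libraries, and likewise in P3. The difference between tissues was a contrast over all 8 libraries, although the CZ and P3 libraries differ in layout and depth. The fits were tested on simulated data. SE is the absolute log2 fold change over the square root of F. Named genes were *DCL1*, the 10 highest and 10 lowest called models with at least 5 RPM and no overlap between genotypes, called models with a name, those near *DCL1*, up to 4 members per list that passed in edgeR and up to 4 in DESeq2 (else the 2 with the smallest p), and up to 6 KNOX genes and regulators by level. Of 45498 rows, 18884 matched a name in RefSeq's gene table (assembly Zm-B73-REFERENCE-NAM-5.0), and list symbols shared with unrelated genes were removed. Coordinates are those of the deposited table, and 1 blank count was read as 0. Target sequences are from the study's supplementary target table. The members and lists were chosen with earlier results of these data known. Alternatives were other normalizations and filters, DESeq2 1.42.0, limma-voom 3.58.1, a model of all libraries, each CZ library left out, a replicate block, no fold minimum, and precursors left out. 1 member of the KNOX list is not reported here by name.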

Additional observations from a re-analysis of the deposited data

Results flagged for a closer look

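For 15 named genes called in the CZ, the effect of *dcl1-2* differed between the CZ and P3 in a test of the difference itself (edgeR's quasi-likelihood test over all 8 libraries, Benjamini-Hochberg adjusted). Values are the log2 fold change in the CZ minus that in P3. *GAD* alone had a positive difference, 1.88 (adjusted p = 0.0224). Among genes with a name, the difference was -5.09 for *DEF1* (adjusted p = 0.00366), -2.77 for *smt2* (0.00169), -1.80 for *PIN1d* (0.00481), -1.73 for *TUB1* (0.00129) and -0.97 for *AGO10* (0.0495). It was -5.96 for GRMZM2G040689 (adjusted p = 0.000341), -5.14 for GRMZM2G036134 (0.00324), -4.87 for GRMZM2G064852 (0.00163), -4.46 for GRMZM5G851266 (0.0105) and -4.25 for GRMZM2G094639 (0.00767). It was -3.19 for GRMZM2G011523 (adjusted p = 0.000186) and -3.07 for GRMZM5G825287 (0.000615), which overlap each other. It was -2.08 for GRMZM2G164440 (adjusted p = 0.0243) and -0.88 for GRMZM2G070047 (0.0424), which lies near *DCL1*. The genes were called on their effect in the CZ, and the contrast uses the same CZ libraries, so the choice of genes favours a large difference in the direction of the call.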

How the results depend on the processing

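With 2 libraries per genotype the number of calls moved with the processing, and the cause was not tested. Against 49 calls over all rows, 433 were made with no filter on low counts, 91 at a mean of at least 5 RPM, 210 with DESeq2, 190 with all 8 libraries in 1 model and 30 without precursors and models that overlap one, and 41 to 378 with 1 library left out. List members that passed numbered 7, against 58 with no filter, 19 at 5 RPM, 33 with DESeq2, 20 with all libraries in 1 model, and 6 to 46 with 1 library left out. CZ calls that also passed in P3 numbered 14, against 73 with no filter, 29 at 5 RPM, 44 with DESeq2, 9 with limma-voom, 45 with all libraries in 1 model, and 15 to 85 with 1 library left out. With the replicate number as a block these 3 counts were 198, 32 and 43. The numbers share no stated origin, and the deviations of same-numbered libraries correlated at 0.068, so the block was not used. Other normalizations gave 49 and 50 calls. Of 78 named genes, 10 changed the sign of their log2 fold change in at least 1 alternative, and 0 of these passed either with the settings of the report or in that alternative. *ct2* was at 0.02 with total counts only and 0.00 with all libraries in 1 model. With 1 library left out the log2 fold change ran from -0.05 to 0.05 for *ct2*, -0.03 to 0.22 for *kn1*, -0.02 to 0.27 for *lg3*, -0.30 to 0.58 for *knox4*, -0.41 to 0.20 for *knox7* and -0.01 to 0.56 for *serk3*. It ran from -0.74 to 0.09 for GRMZM2G103773, -0.43 to 0.10 for GRMZM2G024973, -0.47 to 0.06 for GRMZM2G449033 and -0.15 to 0.58 for GRMZM2G102601. Of the 40 called gene models, 28 lost an adjusted p under 0.05 in at least 1 of 14 alternatives. Depth limits genes of few counts: 1 count is 0.0330 to 0.0404 RPM in the CZ.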
